A study of Mus musculus with 9 samples.

Results

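The genes described here are 44 genes that mark monocytes, macrophages and dendritic cells, out of 19938 genes with a value on the arrays. They were chosen by name from a fixed list, each through the probe sets that the platform annotation pairs with that gene's symbol alone. All 44 were found, each with 1 such probe set. The RNA came from CD4-enriched T cells of C57BL/6J mouse spleen, so these genes are not those the enrichment was meant to keep. Every culture was stimulated for 72 h with beads coated with antibodies to CD3 and CD28. The 3 groups were CD69-activated cells (wild-type genotype, with an anti-CD69 antibody from 24 h and a cross-linking secondary antibody from 48 h, each diluted 1 in 200), CD69-/- cells with no antibody to CD69, and wild-type cells likewise without it. Each group had 3 arrays labelled as biological replicates. No age, sex or pooling of animals is given in the sources used here, and nothing says that each array had its own mouse: the p-values reflect only how these samples varied, which may be technical variation. No culture with an isotype control or with the secondary antibody alone is described in the sources used here, so the effect of adding antibody and that of CD69 ligation cannot be told apart.

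Mononuclear phagocytes take up dying cells, microbes and iron-laden red cells, and dendritic cells carry antigen to T cells. Their development depends on the transcription factor PU.1 (Spi1) and on the receptors for CSF1 (Csf1r) and FLT3 ligand (Flt3). In the spleen, red pulp macrophages recycle haem iron, marginal zone macrophages catch blood-borne particles, and conventional dendritic cells settle around the T cell zone. Several of the 44 genes are not private to these cells. Of these, 7 are also known from B cells (Spi1, Irf8, Cd86, Ly86, Ctss, Cybb and Tlr4), and others from natural killer (NK) cells, neutrophils, activated T cells or stroma.

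Values are log2 expression values made by RMA, a method that corrects background, normalizes arrays to each other and summarizes the probes of a set. A difference of 1 is a 2-fold change. Array medians lay between 7.4 and 7.56. Cd69 itself read 11.80, 11.84 and 11.74 in CD69-activated, 9.65, 9.49 and 9.63 in CD69-/- and 12.03, 12.12 and 12.37 in wild-type cells, lowest in CD69-/- cells as their label says. Where its probes lie relative to the deleted part was not tested. Xist, made from the inactive X chromosome of female cells, averaged 12.94, 6.01 and 12.59 in the same groups, and the Y-linked gene Eif2s3y averaged 4.35, 9.78 and 4.33. By these genes the CD69-/- RNA was male and that of both other groups female, so sex and genotype cannot be told apart in any comparison with CD69-/- cells. T cell genes were bright (Cd3e averaged 12.37 in CD69-activated, 12.88 in CD69-/- and 12.50 in wild-type cells). Cd4 averaged 12.06, 12.35 and 11.98 in the same groups. Cd8b1, a gene of CD8 T cells, averaged 12.15, 12.83 and 12.40, so RNA of CD8 T cells was in every group beside that of the labelled CD4 T cells. The B cell gene Cd79b, at 13.54, 13.36 and 13.61, shows that B cell RNA was in every group too. RMA values carry no detection call and probe sets differ in brightness, so no gene is called absent here. Changes below are differences of group means on the log2 scale from limma, and a gene is said to have risen or fallen where the p-value adjusted over all 19938 genes was under 0.05.

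In CD69-/- cells 31 of the 44 genes fell and none rose. Of all genes 15.1% were called, 6.78% lower and 8.36% higher. The median change was -0.383 over the 44 genes and -0.009 over all genes. No gene of the list was higher at an unadjusted p under 0.05 in limma either, and 34 were lower. The falls were led by Adgre1 and by the C-type lectin receptor Clec4n, at 3.64-fold and 2.11-fold. Centring each array on its median left 28 of the 44 lower, where 16.8% of all genes were called (2462 higher and 886 lower). The share of all called genes that were higher moved to 73.5%, against 55.2% with the deposited values. The remaining 13 genes, among them the dendritic cell genes Xcr1, Zbtb46, Batf3 and Itgax, did not pass, while the dendritic cell genes Flt3 and Irf8 fell. As these are bulk samples, fewer cells of a type and less RNA per cell cannot be told apart.

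After CD69 cross-linking the list split. Of the 44 genes 8 rose and 7 fell against wild type, with a median of -0.031, where 23.8% of all genes were called, 10.1% higher and 13.7% lower. Adgre1 and Clec4d rose most, and Flt3 and C1qb fell most. When each array was centred on its median, 5 of the 44 were higher and 18 lower, where 27.6% of all genes were called (764 higher and 4741 lower). Of all called genes 13.9% were then higher, against 42.5% with the deposited values. Under that centring Csf1r, Msr1 and Lyz2 were no longer called, and Cd86, C1qa, Tyrobp, Fcer1g, Tlr4, Ly86, Ctss, Cybb, Cebpb, Irf8 and Batf3 passed as lower. The 2 comparisons with wild type share the wild-type arrays.

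Set directly against CD69-/- cells, CD69-activated cells had 31 of the 44 genes higher and 2 lower (Itgax and Flt3), where 42.6% of all genes were called, 21.6% higher and 21.0% lower. Centring on array medians moved the median of all genes to -0.092, against 0.035 as deposited. It gave 21 of the 44 higher and 5 lower, where 46.9% of all genes were called (1354 higher and 7990 lower). Marco, Siglec1, C1qb, Fcgr1, Tlr2, Lyz1, Ctss, Cybb, Irf8 and Xcr1 were no longer called, and Cebpb, Batf3 and Zbtb46 passed as lower. The share of all called genes that were higher was 14.5% with this centring and 41.9% after cyclic loess, against 50.7%. Standard errors of the log2 changes of the 44 genes lay between 0.034 and 0.104 in all 3 comparisons.

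**Figure D1:**
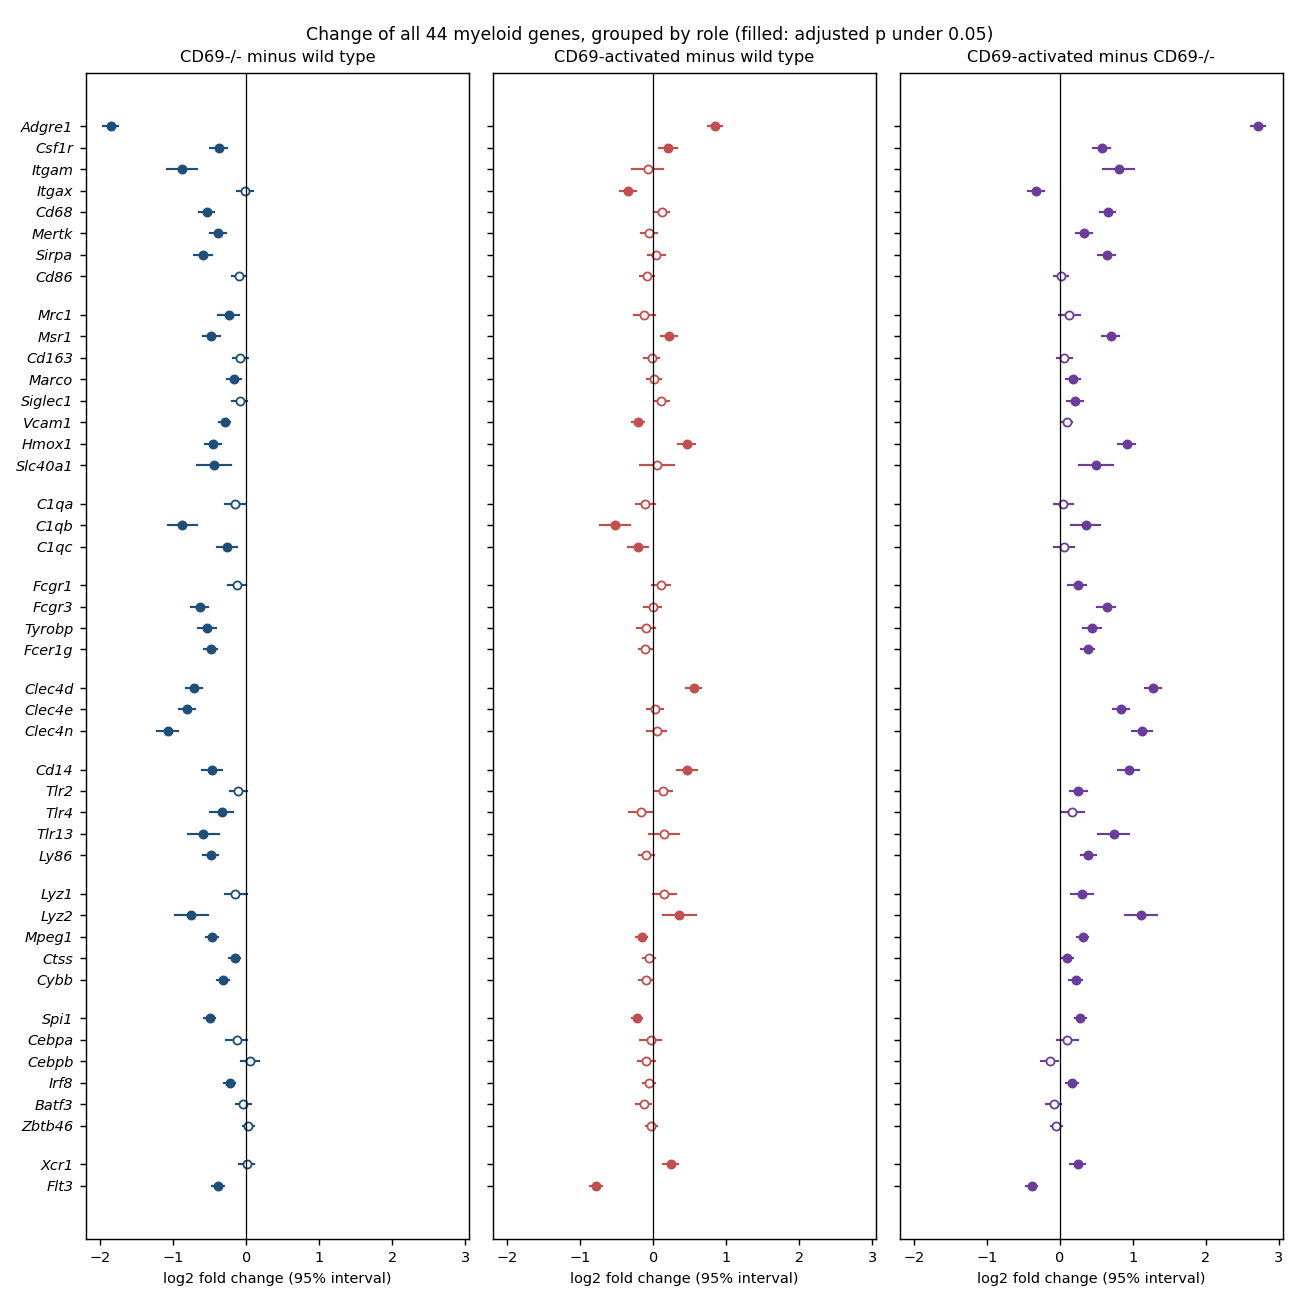
Log2 fold change (x axis, shared scale) of each of the 44 genes, in rows grouped by role, for the 3 comparisons. Points are limma estimates, lines are 95% intervals, and filled points have an adjusted p under 0.05. In the left panel no filled point lies above 0, and in the middle panel 8 filled points lie above 0 and 7 below it.

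Adgre1 encodes F4/80, the surface protein by which mouse macrophages are usually recognised. It read 10.69, 10.70 and 10.71 on the CD69-activated arrays, 7.96, 7.92 and 8.09 on the CD69-/- arrays and 9.84, 9.83 and 9.89 on the wild-type arrays. The 3 groups were fully separate. The change was 0.85 after cross-linking (95% interval 0.75 to 0.94, adjusted p = 4.87e-07) and -1.86 without CD69 (-1.96 to -1.76, adjusted p = 1.23e-09). Between CD69-activated and CD69-/- cells the difference was 2.71, or 6.54-fold (adjusted p = 2.77e-11).

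Other surface receptors of monocytes and macrophages fell without CD69 by smaller amounts, 6 of 8 with Adgre1 included. The share of all genes that fell was 6.78%. Itgam, the integrin chain CD11b, read 8.41, 8.34 and 8.54 in CD69-activated, 7.47, 7.57 and 7.82 in CD69-/- and 8.58, 8.59 and 8.32 in wild-type cells. Its CD69-/- values lay below both other groups, which overlapped each other. The change without CD69 was -0.88 (SE 0.096, adjusted p = 9.07e-05), and after cross-linking it was -0.073 (adjusted p = 0.632). Sirpa, the inhibitory receptor for CD47, read 9.23, 9.26 and 9.27 in CD69-activated, 8.63, 8.49 and 8.71 in CD69-/- and 9.28, 9.20 and 9.14 in wild-type cells. Cd68, a glycoprotein of late endosomes, read 10.04, 10.09 and 10.13, then 9.42, 9.35 and 9.52, and 9.94, 9.98 and 9.99 in the same groups. Both fell without CD69 (Sirpa by 0.59, adjusted p = 2.64e-05, and Cd68 by 0.54, adjusted p = 1.95e-05) and neither passed after cross-linking (0.044 and 0.12, adjusted p = 0.614 and 0.109), though Cd68 passed after cyclic loess (0.14, adjusted p = 0.0336).

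Csf1r, the receptor for CSF1 and IL-34, fell by 0.38 without CD69 (adjusted p = 0.00069). It was at 0.20 after cross-linking (adjusted p = 0.0247), a call lost on leaving out any 1 of the 6 arrays compared (adjusted p from 0.0523 to 0.075) and with array centring (0.149) or cyclic loess (0.0697). Mertk, a kinase receptor for the uptake of apoptotic cells, fell by 0.39 without CD69 (adjusted p = 0.000256) and was at -0.064 after cross-linking (adjusted p = 0.4). Cd86, the ligand of CD28 and CTLA-4, passed in neither (-0.099 without CD69 and -0.083 after cross-linking, adjusted p = 0.173 and 0.204), but was lower without CD69 after cyclic loess (-0.13, adjusted p = 0.0337).

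Itgax, the integrin chain CD11c of dendritic cells, was called after cross-linking and not without CD69. It read 7.63, 7.46 and 7.58 in CD69-activated, 7.92, 7.91 and 7.84 in CD69-/- and 7.92, 7.95 and 7.84 in wild-type cells. The CD69-activated values lay below both other groups, which overlapped. The change was -0.35 after cross-linking (95% interval -0.46 to -0.24, adjusted p = 0.000497), and -0.015 without CD69 (-0.13 to 0.095, adjusted p = 0.887). In the RefSeq gene order (GRCm38.p6) Itgam and Itgax lie side by side on chromosome 7, with no protein-coding gene between them. Clec4n, Clec4d and Clec4e are likewise neighbours on chromosome 6, as are the C1q genes on chromosome 4 and the lysozyme genes on chromosome 10.

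The promoters of 2 pairs of neighbours whose values part are shown here, each a window of 300 bases that spans the transcription start, from RefSeq (GRCm38.p6). Capitals mark GAGGAA, a core of sites for the ETS family of factors, to which PU.1 belongs, on either strand (read as TTCCTC on the other strand). It is 1 of 6 motifs searched on both strands, all chosen after the values were seen. The windows are chr7:128062390-128062689 (plus strand) for Itgam, chr7:128129300-128129599 (plus strand) for Itgax, chr6:123261857-123262156 (plus strand) for Clec4d and chr6:123289822-123290121 (minus strand) for Clec4e.
Itgam: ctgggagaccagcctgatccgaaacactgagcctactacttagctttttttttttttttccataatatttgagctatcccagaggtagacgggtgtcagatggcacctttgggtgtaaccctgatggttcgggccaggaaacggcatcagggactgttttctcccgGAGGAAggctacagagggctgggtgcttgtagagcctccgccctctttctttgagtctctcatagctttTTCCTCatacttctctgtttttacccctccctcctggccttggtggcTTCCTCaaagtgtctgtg
Itgax: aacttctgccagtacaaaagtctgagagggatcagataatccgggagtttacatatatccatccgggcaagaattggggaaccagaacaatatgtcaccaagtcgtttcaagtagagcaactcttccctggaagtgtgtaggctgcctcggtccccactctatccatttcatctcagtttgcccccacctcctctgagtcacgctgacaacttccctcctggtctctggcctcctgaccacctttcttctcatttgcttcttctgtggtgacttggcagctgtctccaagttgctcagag
Clec4d: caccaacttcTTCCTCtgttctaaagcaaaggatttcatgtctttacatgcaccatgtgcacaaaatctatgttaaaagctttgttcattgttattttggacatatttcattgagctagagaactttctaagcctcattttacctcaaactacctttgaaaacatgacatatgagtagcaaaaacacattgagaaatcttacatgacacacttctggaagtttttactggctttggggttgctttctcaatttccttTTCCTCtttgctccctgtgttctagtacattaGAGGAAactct
Clec4e: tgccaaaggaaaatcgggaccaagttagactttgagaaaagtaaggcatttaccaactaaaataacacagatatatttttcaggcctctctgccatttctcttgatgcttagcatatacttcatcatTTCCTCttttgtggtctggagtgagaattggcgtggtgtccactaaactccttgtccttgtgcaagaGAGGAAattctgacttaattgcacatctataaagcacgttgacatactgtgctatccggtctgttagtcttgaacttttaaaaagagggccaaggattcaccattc
Itgam holds 3 matches, Itgax none, Clec4d 3 and Clec4e 2. Lyz2 and Lyz1, neighbours whose values also part, hold none in either window and are not printed. A promoter was listed for 29 of the 44 genes, and 14 of these (48.3%) hold GAGGAA on either strand, against 28.3% of 27025 promoters of the same length, 1 per gene. The longer PU.1 form GAGGAAGT, which contains GAGGAA, was in 2 of the 29 (6.9%) and in 3.28% of all promoters. Shares for the others were 13.8% against 7.93% for the AP-1 motif TGANTCA, 20.7% against 14.2% for TATAAA, 82.8% against 84.7% for TTGC and 0.0% against 0.185% for TTGCGCAA, the C/EBP site that contains TTGC. These are matches of letters and were not tested as binding sites.

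All 3 C-type lectin receptors fell without CD69, and Clec4d alone of them rose after cross-linking. Clec4n encodes dectin-2, a receptor for fungal mannans, Clec4e encodes Mincle, a receptor for mycobacterial glycolipids, and Clec4d encodes MCL, a partner of Mincle. Clec4n read 6.99, 7.18 and 6.98 in CD69-activated, 5.96, 5.94 and 5.87 in CD69-/- and 7.10, 7.0 and 6.91 in wild-type cells. Clec4e read 9.14, 9.10 and 9.22 in CD69-activated, 8.25, 8.35 and 8.34 in CD69-/- and 9.12, 9.20 and 9.07 in wild-type cells. For both genes the CD69-/- arrays stood alone at the bottom and the other 2 groups overlapped. Clec4d, whose promoter is shown above beside that of Clec4e, read 7.91, 7.93 and 7.89 in CD69-activated, 6.74, 6.64 and 6.53 in CD69-/- and 7.34, 7.36 and 7.36 in wild-type cells, with no overlap between any groups.

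The log2 changes without CD69 were -1.08 for Clec4n (SE 0.062, adjusted p = 1.58e-06), -0.82 for Clec4e (SE 0.048, adjusted p = 1.64e-06) and -0.72 for Clec4d (SE 0.049, adjusted p = 4.26e-06). After cross-linking Clec4d rose by 0.56 (95% interval 0.45 to 0.66, adjusted p = 2.13e-05). Clec4e was at 0.023 (-0.083 to 0.13, adjusted p = 0.782) and Clec4n at 0.047 (-0.091 to 0.18, adjusted p = 0.64). The 3 genes lie on the chromosome of Cd69, with 89 protein-coding genes between Cd69 and Cd163, the nearest gene of the list. Cd163, a scavenger receptor for haemoglobin bound to haptoglobin, was at -0.081 without CD69 (adjusted p = 0.304) and -0.020 after cross-linking (adjusted p = 0.803).

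Of the Fc receptors and the adaptors through which they and the lectins signal, 3 of 4 fell without CD69, against 6.78% of all genes. Fcgr3, a receptor for IgG complexes, read 8.14, 8.20 and 8.20 in CD69-activated, 7.59, 7.42 and 7.63 in CD69-/- and 8.13, 8.24 and 8.20 in wild-type cells. It fell by 0.64 without CD69 (adjusted p = 1.62e-05) and was at -0.0073 after cross-linking (95% interval -0.13 to 0.11, adjusted p = 0.943). Tyrobp, the adaptor DAP12, read 9.33, 9.41 and 9.51 in CD69-activated, 8.95, 8.94 and 9.03 in CD69-/- and 9.60, 9.47 and 9.46 in wild-type cells. Its CD69-/- values were the lowest, and it fell by 0.54 (adjusted p = 5.33e-05). Fcer1g, the common gamma chain of Fc receptors, fell by 0.49 (adjusted p = 1.04e-05). Fcgr1, the high-affinity IgG receptor, did not pass (-0.13, adjusted p = 0.166). After cross-linking none of the 4 passed in limma, and 1 (Fcer1g, -0.11) had an unadjusted p under 0.05. Fcgr3 belongs to a family of similar receptors, and its signal may include theirs, which was not tested.

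**Figure D2:**
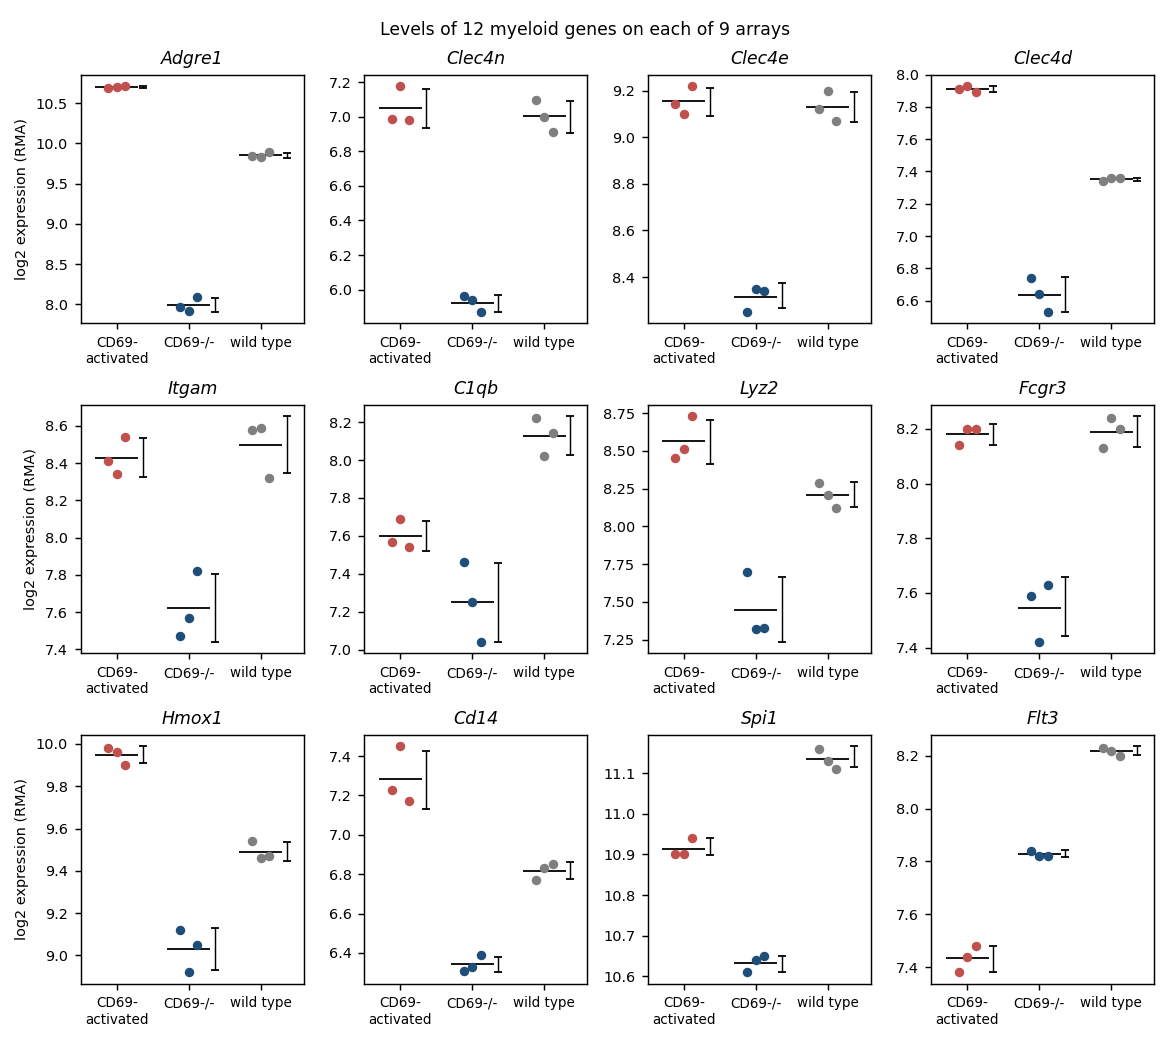
Log2 expression (y axis, a separate scale in each panel) of 12 genes on each array, in CD69-activated, CD69-/- and wild-type cells (3 points each). Horizontal lines are group means and the bars beside them 1 SD. The CD69-/- points lie below the wild-type points in every panel, and in the panels of Adgre1, Clec4d, Lyz2, Hmox1 and Cd14 the CD69-activated points lie above the wild-type points.

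Of 5 Toll-like receptors and partners 4 fell without CD69, against 6.78% of all genes, and Cd14 rose after cross-linking. Cd14, which hands bacterial lipopolysaccharide to TLR4, read 7.23, 7.45 and 7.17 in CD69-activated, 6.31, 6.33 and 6.39 in CD69-/- and 6.77, 6.83 and 6.85 in wild-type cells. No groups overlapped. It rose by 0.46 after cross-linking (adjusted p = 0.000375) and fell by 0.47 without CD69 (adjusted p = 0.000385). Tlr13, a sensor of bacterial ribosomal RNA, read 7.43, 7.21 and 7.07 in CD69-activated, 6.68, 6.45 and 6.36 in CD69-/- and 7.18, 7.04 and 7.04 in wild-type cells. It fell by 0.59 without CD69 (SE 0.097, adjusted p = 0.0016) and was at 0.15 after cross-linking (adjusted p = 0.299). Tlr13 and Cybb are the X-linked genes of the list. Without the X and Y chromosome genes 29 of the other 42 fell in CD69-/- cells, where 15.3% of all genes were called. Leaving these genes out cannot separate sex from genotype for genes on other chromosomes. Tlr4 fell by 0.34 (adjusted p = 0.00653) and Ly86, the partner MD-1 of the B cell and macrophage receptor CD180, by 0.49 (adjusted p = 2.94e-05). Tlr2, the receptor for bacterial lipoproteins, did not pass without CD69 (-0.11, adjusted p = 0.211). After cross-linking Tlr2 was at 0.14 (adjusted p = 0.08, but 0.0316 with a block for replicate numbers and 0.0463 without wild-type replicate 1).

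Lyz2, the lysozyme of macrophages and neutrophils, read 8.45, 8.51 and 8.73 in CD69-activated, 7.70, 7.32 and 7.33 in CD69-/- and 8.29, 8.21 and 8.12 in wild-type cells. The groups did not overlap. It fell by 0.76 without CD69 (SE 0.10, adjusted p = 0.000373) and rose by 0.35 after cross-linking (adjusted p = 0.026), a call lost without CD69-activated replicate 3 (0.0919) or wild-type replicate 2 (0.0725) or 3 (0.0943). Its close copy Lyz1, the lysozyme of Paneth cells, read 7.22, 7.47 and 7.40 in CD69-activated, 7.08, 7.17 and 6.94 in CD69-/- and 7.22, 7.22 and 7.20 in wild-type cells. Neither comparison of Lyz1 with wild type passed (-0.15 without CD69, adjusted p = 0.207, and 0.15 after cross-linking, adjusted p = 0.147). Without CD69-activated replicate 1 the second passed at an adjusted p = 0.0285. The 2 lysozymes are alike in sequence, and how well their probes separate them was not tested.

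Among the other phagosome effectors, Mpeg1, a pore-forming protein that attacks engulfed bacteria, fell by 0.47 without CD69 (adjusted p = 8.07e-06) and by 0.16 after cross-linking (adjusted p = 0.00708). Cybb, the catalytic subunit of the phagocyte NADPH oxidase, fell by 0.32 without CD69 (adjusted p = 0.000171) and was at -0.10 after cross-linking (adjusted p = 0.0795, and 0.0375 without wild-type replicate 3). Ctss, the protease cathepsin S that trims the class II invariant chain, fell by 0.16 without CD69 (adjusted p = 0.0103, and 0.12 with array centring). After cross-linking Ctss was at -0.061 (adjusted p = 0.254). Its call as higher in CD69-activated than in CD69-/- cells (0.099, adjusted p = 0.0433) was lost in 11 of the alternative settings, 7 of which left out 1 array: CD69-activated replicate 2 (0.0501) or 3 (0.12), CD69-/- replicate 1 (0.0622), 2 (0.113) or 3 (0.0973), or wild-type replicate 2 (0.0574) or 3 (0.0519). The others were array weights (0.0504), the compared arrays alone (0.0622), a block for replicate numbers (0.0775) and array centring (0.646).

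Of the complement C1q chains, C1qb and C1qc fell in both perturbed groups. C1qb read 7.57, 7.69 and 7.54 in CD69-activated, 7.46, 7.25 and 7.04 in CD69-/- and 8.22, 8.02 and 8.14 in wild-type cells. Both perturbed groups lay below every wild-type array. The change was -0.53 after cross-linking (95% interval -0.73 to -0.32, adjusted p = 0.00179) and -0.88 without CD69 (-1.08 to -0.67, adjusted p = 6.62e-05). C1qc read 6.79, 6.81 and 6.68 in CD69-activated, 6.71, 6.69 and 6.73 in CD69-/- and 7.04, 6.81 and 7.07 in wild-type cells. Rounded, the CD69-activated and wild-type groups met at 6.81, though the unrounded values did not overlap. The CD69-/- values lay below every wild-type value. Its changes were -0.21 after cross-linking (adjusted p = 0.0315) and -0.26 without CD69 (adjusted p = 0.0147). The first was lost without CD69-activated replicate 1 (0.0536) or 3 (0.102) or wild-type replicate 1 (0.115) or 3 (0.118) and in the fits with array weights (0.0743) or with the compared arrays alone (0.0813), and the second without CD69-/- replicate 1 (0.0506) or 2 (0.0529) or wild-type replicate 1 (0.0613) or 3 (0.0693) and after cyclic loess (0.0511). C1qa, the third chain of the same protein, read 7.08, 7.06 and 6.94 in CD69-activated, 7.06, 6.90 and 6.98 in CD69-/- and 7.10, 7.06 and 7.25 in wild-type cells. Its groups overlapped and it passed in neither comparison (-0.11 and -0.16, adjusted p = 0.223 and 0.121).

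Hmox1, the haem oxygenase induced in macrophages that digest red cells and in many stressed cells, read 9.98, 9.96 and 9.90 in CD69-activated, 9.12, 8.92 and 9.05 in CD69-/- and 9.54, 9.46 and 9.47 in wild-type cells. The 3 groups did not overlap. It rose by 0.46 after cross-linking (adjusted p = 0.000106) and fell by 0.46 without CD69 (adjusted p = 0.000107). Slc40a1, the iron exporter ferroportin, fell by 0.44 without CD69 (SE 0.10, adjusted p = 0.0143), a call lost without CD69-/- replicate 2 (0.0628) or 3 (0.0534), and was at 0.050 after cross-linking (adjusted p = 0.774).

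Vcam1, an adhesion molecule of red pulp macrophages and of stroma, read 7.88, 7.87 and 7.90 in CD69-activated, 7.84, 7.76 and 7.77 in CD69-/- and 8.09, 8.12 and 8.06 in wild-type cells. Both perturbed groups were below wild type, by 0.21 after cross-linking (adjusted p = 0.00172) and by 0.30 without CD69 (adjusted p = 0.000187). Msr1, a scavenger receptor for modified lipoproteins, read 7.48, 7.46 and 7.60 in CD69-activated, 6.85, 6.88 and 6.72 in CD69-/- and 7.30, 7.27 and 7.31 in wild-type cells. It rose by 0.22 after cross-linking (adjusted p = 0.00922, and 0.103 with array centring) and fell by 0.48 without CD69 (adjusted p = 8.1e-05).

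Marco, a scavenger receptor of marginal zone macrophages, fell by 0.17 without CD69 (adjusted p = 0.0264), and leaving out wild-type replicate 3 (0.108) or CD69-/- replicate 1 (0.0563), 2 (0.0526) or 3 (0.0994) ended that call. So did array centring (0.119), cyclic loess (0.0813) and a block for replicate numbers (0.0518). Mrc1, the mannose receptor, fell by 0.24 without CD69 (adjusted p = 0.0295), a call lost without CD69-/- replicate 2 (0.11) or 3 (0.0725) or wild-type replicate 1 (0.11) or 3 (0.111), with array centring (0.0765), after cyclic loess (0.0689) and with the compared arrays alone (0.0716). Siglec1, the sialic acid receptor of metallophilic macrophages, did not pass without CD69 (-0.093, adjusted p = 0.243). After cross-linking Marco was at 0.011, Mrc1 at -0.12 and Siglec1 at 0.11 (adjusted p = 0.892, 0.235 and 0.114), and Siglec1 passed at 0.037 when CD69-/- replicate 3 was left out of the shared estimate of spread.

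Of 6 transcription factors, Spi1 and Irf8 fell without CD69, which is 33.3% against 6.78% of all genes. Spi1, which encodes PU.1 and is made by B cells as well as myeloid cells, read 10.90, 10.90 and 10.94 in CD69-activated, 10.61, 10.64 and 10.65 in CD69-/- and 11.16, 11.13 and 11.11 in wild-type cells. The groups were separate, with wild type on top. It fell by 0.22 after cross-linking (adjusted p = 0.000794) and by 0.50 without CD69 (adjusted p = 3.62e-06). Irf8, a factor of monocytes, dendritic cells and B cells, fell by 0.23 without CD69 (adjusted p = 0.0012) and was at -0.064 after cross-linking (adjusted p = 0.249). Cebpa, a factor of granulocyte and monocyte precursors, read 7.27, 7.19 and 7.11 in CD69-activated, 6.94, 7.19 and 7.15 in CD69-/- and 7.19, 7.28 and 7.21 in wild-type cells. Its groups overlapped, and it was at -0.036 and -0.13 (adjusted p = 0.738 after cross-linking and 0.224 without CD69). Cebpb, an inflammatory factor also made by T cells, was at -0.092 and 0.050 in the same comparisons (adjusted p = 0.257 and 0.619).

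Zbtb46 and Batf3, factors of conventional dendritic cells, passed in neither comparison with wild type. Zbtb46 read 7.84, 7.76 and 7.82 in CD69-activated, 7.86, 7.88 and 7.84 in CD69-/- and 7.85, 7.81 and 7.84 in wild-type cells. The 95% interval of its change was -0.10 to 0.053 after cross-linking (adjusted p = 0.662) and -0.050 to 0.11 without CD69 (adjusted p = 0.677). Batf3, needed for cross-presenting dendritic cells and also made by activated T cells, read 7.84, 7.70 and 7.69 in CD69-activated, 7.83, 7.80 and 7.86 in CD69-/- and 7.89, 7.90 and 7.83 in wild-type cells. Its change was -0.13 after cross-linking (adjusted p = 0.0648, and 0.0096 without CD69-activated replicate 1, 0.00728 with array centring, 0.0178 after cyclic loess and 0.0394 with array weights) and -0.042 without CD69 (adjusted p = 0.62).

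The 2 dendritic cell receptors went different ways after cross-linking, Xcr1 by less than Flt3. Flt3, the receptor whose ligand drives dendritic cell development, read 7.38, 7.44 and 7.48 in CD69-activated, 7.84, 7.82 and 7.82 in CD69-/- and 8.23, 8.22 and 8.20 in wild-type cells. Its groups were separate and the CD69-activated arrays were the lowest. Flt3 fell by 0.78 after cross-linking (95% interval -0.86 to -0.70, adjusted p = 1.78e-07) and by 0.39 without CD69 (-0.47 to -0.31, adjusted p = 2.94e-05). The direct difference between CD69-activated and CD69-/- cells was -0.39 (adjusted p = 8.47e-06). Xcr1, the XCL1 receptor of cross-presenting dendritic cells, read 6.63, 6.62 and 6.63 in CD69-activated, 6.42, 6.31 and 6.42 in CD69-/- and 6.42, 6.30 and 6.42 in wild-type cells. It rose by 0.24 after cross-linking (adjusted p = 0.00306) and was at 0.0021 without CD69 (95% interval -0.099 to 0.10, adjusted p = 0.985). Its call as higher than in CD69-/- cells (0.24, adjusted p = 0.00164) was lost with array centring (0.0915). All group means of Xcr1, and those of Flt3 in CD69-activated and CD69-/- cells, lay within the range of genes known from other tissues (4.25 to 8.05).

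Genes whose products bind or complete those of the list were mixed. Of 31 such ligands, partner chains and signalling proteins with a value, 11 rose and 7 fell without CD69 (median 0.025). After cross-linking 5 rose and 11 fell (median -0.047). Those are 58.1% and 51.6% called, against 15.1% and 23.8% of all genes. Xcl1, the ligand of XCR1, averaged 9.07 in CD69-activated, 12.17 in CD69-/- and 12.15 in wild-type cells, and it fell by 3.08 after cross-linking (adjusted p = 2.08e-10), the lowest estimate of any gene in that comparison. Csf1, the ligand of Csf1r, fell by 0.49 after cross-linking (adjusted p = 6.47e-05) and rose by 0.20 without CD69 (adjusted p = 0.0236). Csf2, a myeloid growth factor made by activated T cells, fell by 0.62 after cross-linking (adjusted p = 0.000287) and by 0.37 without CD69 (adjusted p = 0.00975). Flt3l passed in neither (0.086 and 0.11, adjusted p = 0.139 and 0.1).

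Without CD69 the partners went both ways. Itgb2, the beta chain of CD11b and CD11c that T cells also make, rose by 0.27 without CD69 (adjusted p = 0.000315), while Itgam was at -0.88. Syk, the kinase behind the ITAM adaptors in myeloid and B cells, fell by 0.71 (adjusted p = 1.6e-06), Cd180, the partner of Ly86, by 0.64 (adjusted p = 6.4e-06), Itga4, a chain of the VCAM1 receptor, by 0.51 (adjusted p = 6.68e-06), and Ncf1, an NADPH oxidase subunit, by 0.45 (adjusted p = 2.81e-05). Pros1, a bridge between dying cells and MERTK, rose by 0.65 without CD69 (adjusted p = 6.88e-06). The T cell receptors for CD86, Cd28 and Ctla4, rose by 0.62 and 0.59 (adjusted p = 8.05e-06 and 8.11e-06). The transferrin receptor Tfrc (0.32, adjusted p = 0.00427) and the factors Irf4 (0.50, adjusted p = 4.26e-06) and Batf (0.42, adjusted p = 0.00025) rose as well. After cross-linking Cd180 rose by 0.31 (adjusted p = 0.000784), and Tfrc (-0.62, adjusted p = 4.32e-05), the IgG receptor Fcgr4 (-0.47, adjusted p = 0.000299), Irf4 (-0.44, adjusted p = 9.28e-06) and Pros1 (-0.35, adjusted p = 0.000386) fell.

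Other monocyte and macrophage genes, 51 with a value, fell in 26 cases and rose in 4 without CD69 (median -0.156). After cross-linking 10 rose and 10 fell (median 0.024). The shares called were 58.8% and 39.2%, against 15.1% and 23.8% of all genes. Mmp12, the macrophage elastase, averaged 9.86 ± 0.062 in CD69-activated, 8.01 ± 0.16 in CD69-/- and 9.50 ± 0.10 in wild-type cells (SD, n = 3 each), a change of 0.36 after cross-linking (adjusted p = 0.00644) and -1.49 without CD69 (adjusted p = 8.23e-07). Gpnmb, a lysosomal glycoprotein of lipid-laden macrophages, fell by 1.15 without CD69 (adjusted p = 1.58e-08), Clec7a, the beta-glucan receptor dectin-1, by 1.19 (adjusted p = 2.75e-06), and the lipid scavenger Cd36 by 0.97 (adjusted p = 9.43e-06). The rises without CD69 were Ccr2 (0.51), Cd200r1 (0.43), Ctsd (0.42) and Maf (0.30), and T cells are known to make Ccr2, Cd200r1 and Maf. After cross-linking the apolipoprotein gene Apoe (0.43), Mmp12, the complement receptor C3ar1 (0.34) and Clec4a1 (0.26) led the rises. Axl, a receptor related to MERTK, fell by 0.70 after cross-linking (adjusted p = 1.12e-05), followed by Clec7a (-0.45), Clec12a (-0.41) and Pilra (-0.39). Of the genes named here Clec7a, Clec12a, Clec4a1 and Gpnmb lie on chromosome 6, as Cd69 does. How near they lie to Cd69, and whether that bears on their values in CD69-/- cells, was not tested.

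Markers of other cell types were compared in the same way. Of all genes 15.1% were called without CD69 and 23.8% after cross-linking. Of 17 B cell markers all fell without CD69 (median -0.498), and their mean level ran from 11.43 to 11.52 on the CD69-/- arrays against at least 11.96 on each wild-type array. Of 11 CD4 T cell markers 10 rose (median 0.374, mean level 11.89 to 11.92 in CD69-/- against 11.46 to 11.55 in wild-type cells), Cd8a and Cd8b1 both rose, and 4 of 6 erythroid markers fell (mean level 6.95 to 7.15 against 7.86 to 7.87). Of 14 neutrophil markers 2 fell and none rose (median -0.118). That is 14.3% of them, against 6.78% of all genes lower and 15.1% called in either direction. Their mean level ran from 6.19 to 6.25 on the CD69-/- arrays against 6.38 to 6.43 on the wild-type arrays. Of 8 mast cell and basophil markers 5 fell and 1 rose, and of 10 NK cell markers 4 fell and 4 rose. Platelet markers fell in 3 of 5 cases, and of 8 plasma cell markers 4 fell and 2 rose. The mean level of the 44 genes ran from 8.01 to 8.06 on the CD69-/- arrays, against 8.43 to 8.47 on the wild-type arrays. Of the 7 genes of the list that B cells also make, 6 fell (median -0.320), of the 10 that neutrophils also make 8 fell (median -0.558), and of the 5 that NK cells also make 4 fell (median -0.539). Of the 21 for which no other cell type was listed here, 14 fell (median -0.377). That listing is not complete, as the 21 include Lyz1, the lysozyme of Paneth cells. How far these other cells bear on the falls was not tested.

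After cross-linking the mean level of the 44 genes was 8.45 on each CD69-activated array, and that of the B cell markers 11.92 to 11.99. Of the 17 B cell markers 3 rose and 3 fell. NK cell markers fell in 8 of 10 cases (mean level 7.65 to 7.72 in CD69-activated against 8.37 to 8.41 in wild-type cells), and mast cell and basophil markers in 7 of 8 (7.56 to 7.63 against 7.99 to 8.06). Neutrophil markers had 1 rise, that of Mmp8, and 1 fall (mean level 6.46 to 6.52 against 6.38 to 6.43). That is 14.3% called, against 23.8% of all genes. Cd8a and Cd8b1 both fell (mean level 11.32 to 11.52 against 11.81 to 11.84). Falls were also called in 5 of 8 plasma cell, 3 of 5 platelet and 3 of 11 CD4 T cell markers, with no rise. For the CD4 T cell markers that is 27.3%, against 13.7% of all genes lower and 23.8% called in either direction. Erythroid markers had 1 rise and 1 fall. Stromal and endothelial markers, relevant to Vcam1, fell in 2 of 11 cases without CD69 and rose in 1 after cross-linking. Those are 18.2% and 9.09% called, against 15.1% and 23.8% of all genes. Of all genes 6.78% were lower without CD69 and 10.1% higher after cross-linking. Cr2, which was also counted among the B cell markers, was 1 of these falls (-0.45) and the only rise (0.17). The part of these cells in the changes was not tested.

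**Figure D3:**
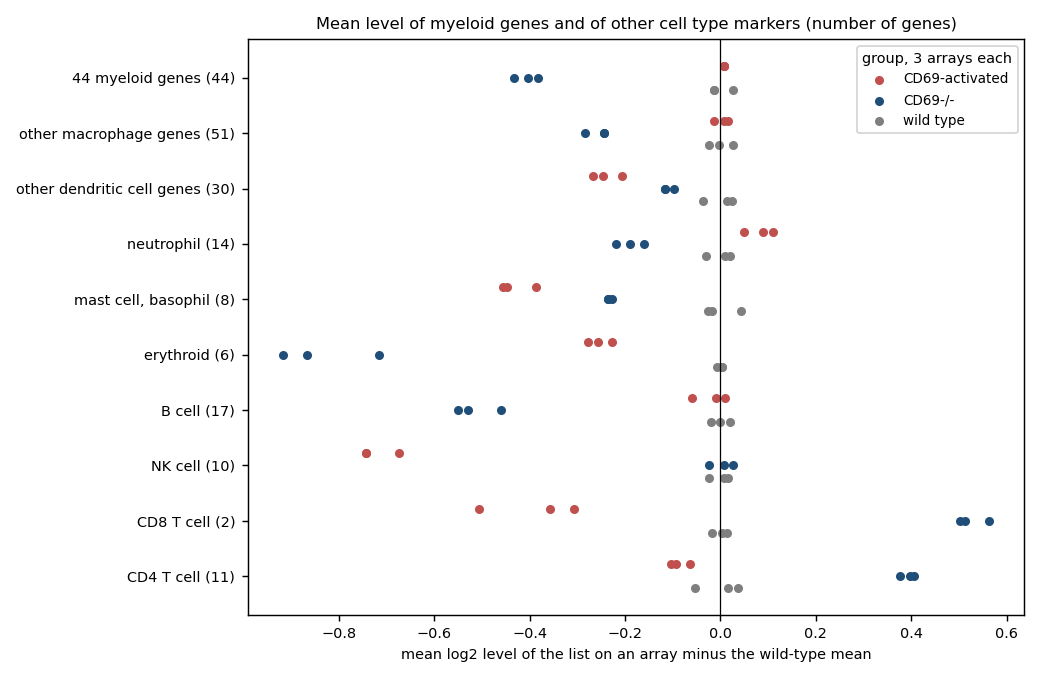
Mean log2 level of the 44 myeloid genes and of other lists on each array, minus the mean of the wild-type arrays (x axis), in CD69-activated, CD69-/- and wild-type cells (3 points each). The CD69-/- points of the myeloid, B cell and erythroid lists lie left of 0 and those of the CD4 and CD8 T cell lists lie right of it.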

How the data were processed

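Total RNA from 9 cultures was hybridised to 1-colour Affymetrix arrays. The authors deposited log2 values. The submitters' processing notes name RMA, oligo and R 2.12.1. Its settings and the genome build are not stated in the sources used here. RMA compresses large fold changes, and quantile normalization, ordinarily part of it, assumes like distributions on all arrays. Array number limits the precision. Of 35556 probe sets 21789 had 1 gene symbol, 1621 several and 12146 none, and 21698 were matched by gene ID to RefSeq. The brightest probe set by its mean over all arrays stood for each of 19938 genes.

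Values were fitted with limma 3.58.1 in R 4.3.3 (3 group means, 9 arrays, 6 residual and 4.78 prior degrees of freedom, two-sided, Benjamini-Hochberg over all genes). The members and gene lists were chosen with earlier results of these data known. All members are described. Given array by array were the 12 called members with the largest change in each comparison with wild type, and Cebpa, Spi1, Lyz1, Lyz2, the C1q genes, Xcr1, Zbtb46 and Batf3. From the partner list, called genes with a change of at least 0.3 were named with some ligands, and from the other lists up to 4 rises and falls. The fits were tested on simulated data. Alternatives changed the scaling (array median centring or cyclic loess), dropped the dimmest genes, averaged probe sets, used a trended robust prior, array weights, a block for replicate numbers or the 6 compared arrays alone, or left out 1 array at a time. Leaving out X and Y chromosome genes was added after seeing the data. Figures used matplotlib 3.10.9 in Python 3.11.15.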

Additional observations from a re-analysis of the deposited data

How the results depend on the processing

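Without CD69 the number that fell ran from 27 to 31 over all settings and none rose in any, where 11.1% to 21.7% of all genes were called. The median of the list was -0.337 with median centring, -0.341 after cyclic loess and between -0.417 and -0.341 when 1 array was left out, against -0.383. After cross-linking 23 genes were called with median centring (5 higher and 18 lower, median -0.112), where 27.6% of all genes were called. As deposited 15 were called with a median of -0.031, which was -0.046 after cyclic loess and -0.039 to -0.023 when 1 array was left out. Between CD69-activated and CD69-/- cells the median was 0.164 with median centring, 0.261 after cyclic loess and 0.259 to 0.299 when 1 array was left out, against 0.291. Ctss was at -0.028 in that comparison with median centring, against 0.099. Deviations from group means correlated at -0.242 to 0.142 between arrays of the same replicate number, and at -0.143 to 0.196 between arrays of different numbers. With 3 arrays a group this cannot show whether the numbers pair samples. A replicate block gave 30 called members in CD69-/- against wild type, 16 in CD69-activated against wild type and 32 in CD69-activated against CD69-/-. Without the block these were 31, 15 and 33. With it 13.1%, 21.8% and 40.4% of all genes were called. The cause of these changes was not tested. Array number, at 3 a group, limits the precision of every value.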

Other observations

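Other dendritic cell genes, 30 with a value, fell in 12 cases and rose in 6 without CD69 (median -0.095). After cross-linking 10 of them fell and 1 rose (median -0.064). The shares called were 60.0% and 36.7%, against 15.1% and 23.8% of all genes. Fscn1, the actin bundler of mature dendritic cells, read 10.04, 10.10 and 10.15 in CD69-activated, 11.21, 11.23 and 11.22 in CD69-/- and 11.67, 11.71 and 11.55 in wild-type cells, a change of -1.54 after cross-linking (adjusted p = 9.39e-09). The chemokines Ccl22 (-1.43 after cross-linking and -0.70 without CD69, adjusted p = 3.63e-08 and 7.29e-06) and Ccl17 (-0.84 and -0.66, adjusted p = 6.99e-05 and 0.000413) were lower in both perturbed groups. Wdfy4, which serves cross-presentation and is also made by B cells, rose by 0.29 after cross-linking (adjusted p = 0.00125) and fell by 0.67 without CD69 (adjusted p = 4.75e-06). Ciita, the class II transactivator, fell by 0.63 without CD69 (adjusted p = 4.02e-06). All 17 B cell markers fell without CD69 too, and how far B cells bear on the falls of this list was not tested. Havcr2 was at -1.23 after cross-linking and 0.71 without CD69 (adjusted p = 3.63e-08 and 2.83e-06), and effector T cells also make it. Itgae (0.54), Irf4 (0.50) and Id2 (0.28), genes that T cells make too, rose without CD69.

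The deposited values hold exact ties between arrays. Of the 19938 genes 51.5% had the same value on at least 2 of the 9 arrays and 33.4% had a tie within a group. Among the 44 genes 7 had a tie within a group (Cd163, Marco, Siglec1, Fcer1g, Lyz1, Spi1 and Xcr1), and the 3 wild-type values of Siglec1 were identical. How these ties bear on the calls was not tested. A panel of 22 genes known from other tissues had means between 4.25 and 8.05 over all arrays, a range that shows how far probe sets differ in brightness. Many of the 44 genes had all 3 group means inside that range, among them Clec4n, Clec4d, Csf1r, Msr1, Cd14, Tlr13, Mrc1, Cd163 and Xcr1. So did Itgax, C1qa, Lyz1, Cebpa, Batf3 and Zbtb46. Whether their signal stood above background was not tested.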
